A study of Mus musculus with 2 samples.

Results

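Pou4f1, Bhlhe22, Zbtb16 and Hopx, transcription regulators grouped here around the type Ic neuron factor Pou4f1, were described in single mouse spiral ganglion neurons, the sensory neurons that carry sound signals from the cochlea to the brain. These 4 genes, of 14425 listed, were chosen by name with results of these data known, and were read together with Lypd1, a membrane-anchored Ly6-family protein that marks type Ic neurons. The control library, iCON, was made from Runx1-CreER/+; Ai14/+ mice and the other, iCKO, from Runx1-CreER/Runx1F; Ai14/+ mice. All mice carried the tamoxifen-inducible Cre driven from Runx1 and the Ai14 tdTomato reporter, and all were given tamoxifen on postnatal day 1. Neurons of both sexes were harvested between postnatal days 27 and 29 and sorted for tdTomato, so the cells sampled are those in which the driver had been active. There was 1 library per genotype, with 462 iCON and 407 iCKO cells, and the number of animals pooled is not given in the sources used here. Differences are therefore between libraries, without replicates, and no statistical test was made between them.

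Type I spiral ganglion neurons contact inner hair cells and fall into subtypes Ia, Ib and Ic, while the rarer type II neurons contact outer hair cells. Runx1, the gene floxed in iCKO mice, encodes a Runt-domain transcription factor that takes part in choosing neuron subtypes in other sensory ganglia. Pou4f1 (Brn3a) is a POU-homeodomain factor of sensory ganglia and a known marker of type Ic neurons. Bhlhe22 is a basic helix-loop-helix repressor of neurons, Zbtb16 (PLZF) is a zinc-finger repressor with a BTB domain, and Hopx is a small homeodomain-only protein that acts through partners and does not bind DNA itself.

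All of these genes are protein-coding in the GENCODE M21 annotation of GRCm38. Pou4f1 (ENSMUSG00000048349.9) lies on chromosome 14, from 104461676 to 104467999 on the minus strand. Bhlhe22 (ENSMUSG00000025128.7) lies on chromosome 3, from 18054174 to 18057517 on the plus strand. Zbtb16 (ENSMUSG00000066687.5) lies on chromosome 9, from 48654297 to 48836222 on the minus strand. Hopx (ENSMUSG00000059325.14) lies on chromosome 5, from 77086988 to 77115121 on the minus strand. Promoters from RefSeq (GRCm38.p6) were matched for 2 of the 4 members, Pou4f1 and Hopx, and not for Bhlhe22 and Zbtb16. All 3 matched windows are shown, as the sequence before the starts of members that were higher in Lypd1-high cells. Each line gives the 250 bases before a start site, minus strand, 5′ to 3′. Capitals mark matches, on either strand, to the Runx core TGTGGT or TGCGGT, the homeodomain-type site ATTAAT or the E-box CAGCTG.
Pou4f1, chr14:104468000-104468249: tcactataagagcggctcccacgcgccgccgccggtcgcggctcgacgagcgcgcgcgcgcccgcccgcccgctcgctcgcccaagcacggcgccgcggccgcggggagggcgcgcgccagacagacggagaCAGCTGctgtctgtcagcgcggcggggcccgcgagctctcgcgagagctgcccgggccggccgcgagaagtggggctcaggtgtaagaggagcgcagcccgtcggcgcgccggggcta
Hopx upstream start, chr5:77115124-77115373: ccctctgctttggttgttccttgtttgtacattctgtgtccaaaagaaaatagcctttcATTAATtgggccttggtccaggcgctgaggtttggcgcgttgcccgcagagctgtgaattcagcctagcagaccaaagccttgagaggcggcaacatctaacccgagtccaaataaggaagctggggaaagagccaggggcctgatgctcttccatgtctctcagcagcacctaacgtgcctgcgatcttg
Hopx downstream start, chr5:77095268-77095517: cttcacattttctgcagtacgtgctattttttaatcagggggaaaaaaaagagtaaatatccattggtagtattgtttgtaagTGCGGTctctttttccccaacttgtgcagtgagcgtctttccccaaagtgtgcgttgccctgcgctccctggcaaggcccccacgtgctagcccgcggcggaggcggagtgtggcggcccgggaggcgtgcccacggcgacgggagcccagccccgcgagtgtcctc
The Pou4f1 window held CAGCTG at 118 bases before the start. The upstream Hopx window held ATTAAT at 191 bases and the downstream one TGCGGT at 167 bases before the start. TGTGGT was in none of these windows. Among 32851 promoter windows of that length, 13.001% held CAGCTG, 4.39% ATTAAT, 5.10% TGCGGT and 14.05% TGTGGT. These are matches of letters, and binding was not measured.

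Levels are UMIs (unique molecular identifiers, counts of RNA molecules) of a gene per 10000 UMIs of its cell, averaged over cells, with the SD over cells. Lypd1-high cells held at least 10 Lypd1 per 10000, a linear value of 1000 in the table, and Lypd1-low cells under 1. There were 180 Lypd1-high cells in iCON and 126 in iCKO, or 38.96% and 30.96% of the cells. The iCON cells nearest the threshold were at 10.5 inside and 7.62 outside it, and the iCKO cells at 10.4 and 9.27. Lypd1-high cells were deeper in iCON (median 50681 UMIs) than in iCKO (33944.5). Shares of cells with a UMI are therefore given after thinning every cell to 20000 UMIs. Ranges in parentheses and ranges called intervals are 95% counting intervals, which leave out the spread between animals and between library preparations. Those of summed UMIs also leave out any spread between cells beyond counting, so they can be too narrow even within a library. Runx1 RNA was not lower in iCKO, at 0.867 in iCON and 1.12 in iCKO. A 3′ assay counts transcript ends and the sources used here do not name the floxed segment, so this does not check the deletion, and iCON and iCKO name the libraries by their labels.

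Over all cells, Pou4f1 and Hopx had nearly the same mean in the libraries, Bhlhe22 had a lower mean in iCKO and Zbtb16 a higher one. Pou4f1 was at 0.425 (SD 0.555) in iCON and 0.437 (SD 0.609) in iCKO, with an interval for the log2 ratio of summed UMIs of -0.14 to 0.16. Hopx was at 0.189 (SD 0.359) and 0.201 (SD 0.395), with an interval of -0.10 to 0.34. Both intervals include 0. Bhlhe22 was at 0.0811 (SD 0.181) from 184 UMIs and 0.0465 (SD 0.155) from 63 UMIs, with an interval of -1.30 to -0.45. Zbtb16 was at 0.0421 (SD 0.105) from 92 UMIs and 0.113 (SD 0.202) from 161 UMIs, with an interval of 1.11 to 1.87. Calls past 1.5-fold were made on log2 means with a pseudocount of 0.05, which draws low genes toward 0. On that scale Zbtb16 (0.83) was past the fold and Bhlhe22 (-0.44) was not. Of 6826 genes whose higher mean was 0.1 to 1.2 per 10000, 0.85% were higher and 2.15% lower past the fold, 3% in all.

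In iCON, Pou4f1, Bhlhe22 and Hopx were concentrated in Lypd1-high cells, and Zbtb16 was so only weakly. Pou4f1 was at 0.957 (SD 0.521) in Lypd1-high and 0.0759 (SD 0.153) in the 226 Lypd1-low type I cells, a ratio of summed UMIs of 12.8 (10.2 to 16.3). Bhlhe22 was at 0.183 (SD 0.238) and 0.0126 (SD 0.0729), a ratio of 14.4 (8.36 to 26.999). Hopx was at 0.414 (SD 0.476) and 0.0458 (SD 0.118), a ratio of 9.36 (6.91 to 12.9). Zbtb16 was at 0.0587 (SD 0.120) and 0.0280 (SD 0.0802), a ratio of 1.99 (1.25 to 3.20), so the name type Ic regulator describes it less well. In iCKO the ratios were 10.5 (8.34 to 13.3) for Pou4f1, 5.21 (2.91 to 9.74) for Bhlhe22, 5.18 (3.95 to 6.84) for Hopx and 1.53 (1.07 to 2.16) for Zbtb16. The members were picked with this pattern known, so the ratios describe and support nothing.

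**Figure D1:**
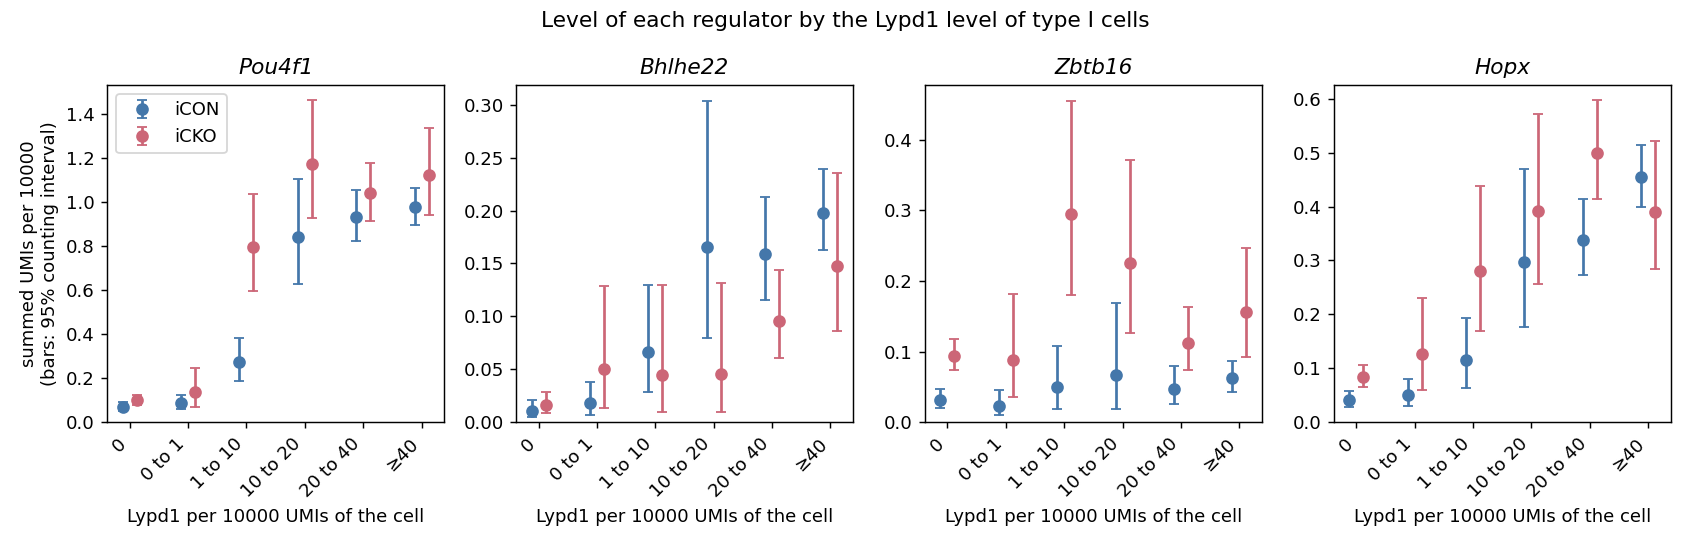
Summed UMIs of each gene per 10000 (vertical axis, linear) in type I cells grouped by their Lypd1 level (horizontal axis, Lypd1 per 10000), for iCON (blue) and iCKO (red), with 95% counting intervals. In both libraries Pou4f1 and Hopx are higher in each group of at least 10 Lypd1 than in the groups under 1, with overlapping intervals among the 3 highest groups, and Zbtb16 in iCKO is already above iCON in cells without a Lypd1 UMI.

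In iCON, Pou4f1 stepped up across the Lypd1 threshold and stayed level above it, whereas in iCKO most of the step lay under the threshold. In iCON its mean was 0.0702 without a Lypd1 UMI, 0.0891 under 1 Lypd1 per 10000 and 0.273 from 1 to 10. It was 0.831, 0.938 and 0.981 at 10 to 20, 20 to 40 and at least 40. In iCKO the same 6 groups had 0.101, 0.145, 0.790, 1.18, 1.03 and 1.12. The libraries parted most in cells with 1 to 10 Lypd1, where Pou4f1 was at 0.273 (SD 0.387) in 26 iCON cells and 0.790 (SD 0.469) in 20 iCKO cells, with a log2 interval of 0.90 to 2.22. These cells were not matched between libraries: Lypd1 itself was at 3.04 in iCON and 4.46 in iCKO (log2 interval 0.31 to 0.76) and Calb2, the calretinin gene, at 37.8 and 110.2. In these cells Zbtb16 was at 0.0628 and 0.261 (interval 1.21 to 4.18) and Hopx at 0.103 and 0.304 (interval 0.21 to 2.39). Bhlhe22 was at 0.0639 and 0.0380, from 8 and 3 UMIs.

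By share of Lypd1-high cells with a UMI, the order was Pou4f1, Hopx, Bhlhe22 and Zbtb16 in iCON, and the last 2 changed places in iCKO. After thinning, Pou4f1 was found in 82.6% (76.2 to 87.8) of iCON Lypd1-high and 12.6% (8.51 to 17.6) of Lypd1-low cells. In iCKO it was found in 88% (80.98 to 93.1) and 15.8% (11.5 to 20.9). Without thinning, 99.4% of iCON and 95.2% of iCKO Lypd1-high cells held a Pou4f1 UMI, so nearly every such cell contained its RNA. Conversely, 81.2% of iCON type I cells with Pou4f1 were Lypd1-high (74.8 to 86.6), against 65.5% of iCKO ones (57.8 to 72.6). A larger share of the Pou4f1 cells of iCKO therefore lay under the Lypd1 threshold. Lypd1-high cells also made up less of iCKO, with 178 of 424 type I cells at that depth in iCON and 125 of 398 in iCKO. The part of this make-up in the shares was not tested. The median level of Calb2, which encodes the type Ia marker calretinin, was 2.67 in Pou4f1 cells of iCON and 61.6 in those of iCKO.

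Hopx was found in 48.9% (41.3 to 56.5) of iCON Lypd1-high and 8.07% (4.85 to 12.5) of Lypd1-low cells, and in iCKO in 56% (46.8 to 64.9) and 9.88% (6.50 to 14.2). Without thinning its Lypd1-high shares were 72.2% and 66.7%, so the direction between libraries turned with the thinning. Bhlhe22 was found in 26.97% (20.6 to 34.1) of iCON and 16.8% (10.7 to 24.5) of iCKO Lypd1-high cells, and in 2.69% (0.994 to 5.76) and 2.77% (1.12 to 5.62) of Lypd1-low cells. Without thinning the Lypd1-high shares were 51.1% and 23.8%. Zbtb16 went the other way, being found in 8.43% (4.79 to 13.5) of iCON and 26.4% (18.9 to 35.03) of iCKO Lypd1-high cells. In Lypd1-low cells it was found in 4.48% (2.17 to 8.09) and 15.02% (10.9 to 20.03). Without thinning its Lypd1-high shares were 23.3% and 38.1%. Between Lypd1-high and Lypd1-low cells the Zbtb16 share differed by 3.94 percentage points in iCON (-0.889 to 9.35) while in iCKO it differed by 11.4 points (2.87 to 20.6). These intervals overlap, and by the ratio of summed UMIs given above the order of the libraries was the reverse.

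The type II-like cluster, whose cells hold almost no Lypd1, served as background. Its 30 iCON cells (median 31229 UMIs) held 0 UMIs of Pou4f1, Bhlhe22 and Hopx among 934400, which allows up to 0.0321 per 10000. They held 3 Zbtb16 UMIs, a mean of 0.0306, near the level of Lypd1-low cells of that library, and after thinning 3.33% (0.0844 to 17.2) of them held one. The Zbtb16 shares of iCON Lypd1-low and Lypd1-high cells both lie within that interval, so neither is set apart from this background by its share. The 7 iCKO cells (median 20915 UMIs) held 0 UMIs of every member among 148648, which allows up to 0.202. That limit lies above the iCKO Lypd1-high means of Zbtb16 (0.141) and Bhlhe22 (0.104) and the Lypd1-low mean of Zbtb16 (0.0910). These values are therefore not set apart from this background either, whereas the Lypd1-high means of Pou4f1 and Hopx lie above the limit. All 30 iCON cells of the cluster expressed Xist without Y-linked genes and all 7 iCKO cells the reverse, so this background comes from a different sex in each library.

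In Lypd1-high cells of iCKO, Pou4f1 and Hopx kept their level by the rule of size, a mean within 1.5-fold of iCON, while Zbtb16 was above that range and Bhlhe22 just below it. The Bhlhe22 call was past the fold in 9 of 19 alternatives. Its log2 ratio, -0.60 as reported, was within the fold after thinning (-0.54), in Xist cells (-0.44), at a Lypd1 threshold of 20 (-0.52), in cells with a Runx1 UMI (-0.583) and with a pseudocount of 0.5 (-0.18). Of 6810 genes at the members' level, 1.45% were higher and 2.16% lower past the fold, 3.61% in all. Of 3793 genes with a mean of at least 0.5 and a UMI in at least 25% of the cells of a library, 1.21% were higher and 1.61% lower, 2.82% in all. The members were chosen on this contrast, so nothing is read from their count. The median log2 ratio was -0.014 for genes at the members' level.

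Pou4f1 was at 0.957 (SD 0.521, median 0.882, highest cell 2.62) in iCON Lypd1-high cells and 1.08 (SD 0.636, median 1.01, highest cell 3.22) in iCKO ones. Its cells overlapped between libraries over nearly the whole range. The log2 ratio was 0.16, with an interval for summed UMIs of 0.018 to 0.35. Hopx was at 0.414 (SD 0.476, median 0.233, highest cell 2.30) and 0.449 (SD 0.517, median 0.293, highest cell 2.57). Its log2 ratio was 0.11, with an interval of -0.11 to 0.41, and its cells ranged from 0 upward in both libraries. Lypd1 itself, on which the cells were chosen, was at 40.6 and 32.4.

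Bhlhe22 was at 0.183 (SD 0.238, median 0.156, highest cell 1.21) in iCON Lypd1-high cells and 0.104 (SD 0.226, median 0, highest cell 1.18) in iCKO ones, from 162 and 43 UMIs. The iCON mean was 1.76 times the iCKO mean, the log2 ratio -0.60 and the interval for summed UMIs -1.37 to -0.36. The highest cells reached similar levels, and after thinning most cells of either library held no Bhlhe22 UMI. Zbtb16 was at 0.0587 (SD 0.120, median 0, highest cell 0.619) and 0.141 (SD 0.205, median 0, highest cell 0.984), from 51 and 60 UMIs. The iCKO mean was 2.41 times the iCON mean, the log2 ratio 0.82 and the interval 0.74 to 1.87. Most cells of either library held no Zbtb16 UMI, and the cells of both libraries overlapped.

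**Figure D2:**
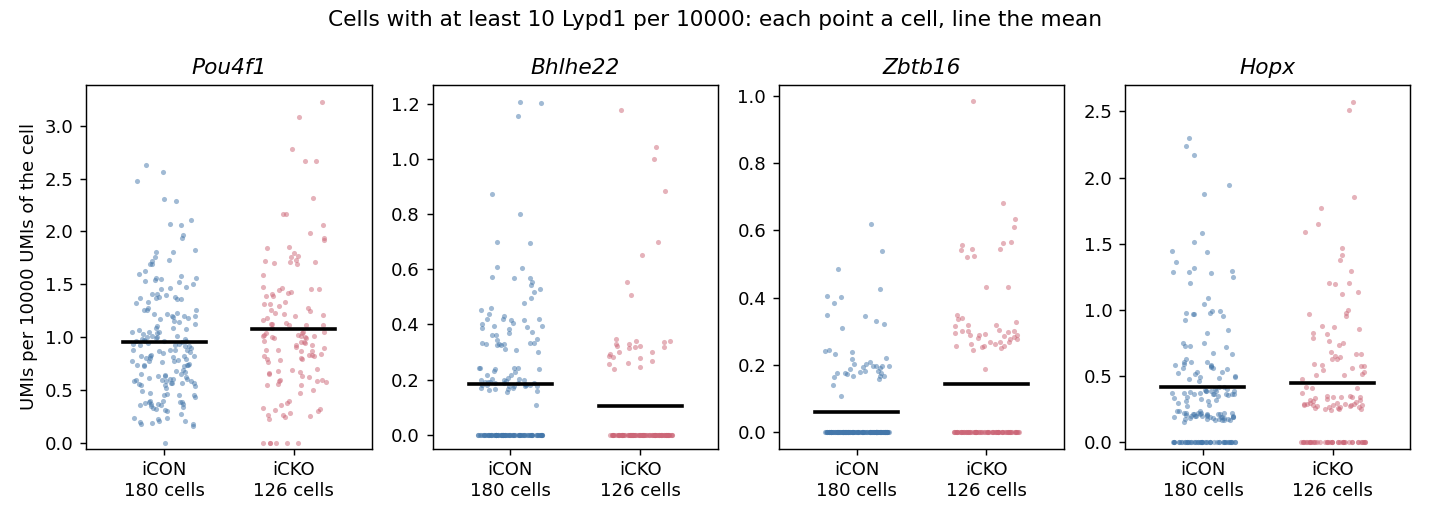
UMIs per 10000 (vertical axis, linear) in each of the 180 iCON and 126 iCKO Lypd1-high cells; each point is a cell, horizontal spread is random and the black line is the mean. The means are 0.957 and 1.08 for Pou4f1, 0.183 and 0.104 for Bhlhe22, 0.0587 and 0.141 for Zbtb16, and 0.414 and 0.449 for Hopx, with the points of both libraries overlapping.

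The Bhlhe22 difference was uneven over the Lypd1-high cells. All cells had been clustered together without the members and the subtype markers. Cluster 0, Ic-like, held 143 iCON and 18 iCKO Lypd1-high cells, with Bhlhe22 at 0.197 (SD 0.252) and 0.219 (SD 0.309). Cluster 1, unnamed and almost all myelin-low, held 31 and 41, with 0.128 (SD 0.176) and 0.136 (SD 0.233). The log2 intervals of summed UMIs, -0.845 to 0.994 and -0.993 to 1.004, include 0. By summed UMIs all Lypd1-high cells were at -0.848. That value lies just outside the lower end of the cluster 0 interval and inside the cluster 1 interval. Cluster 6, Ic-like and of iCKO cells alone, held 36 Lypd1-high cells with 1 Bhlhe22 UMI among 1214535. The other 90 iCKO Lypd1-high cells held 42 among 3007732, so the ratio was 0.0590 (0.00146 to 0.347). Without cluster 6, a choice made after seeing the values, iCKO was at 0.143 and the log2 ratio to iCON was -0.27, within 1.5-fold, with an interval of -0.92 to 0.10. Cluster 4, with 1 iCON and 31 iCKO Lypd1-high cells, held 12 Bhlhe22 UMIs in iCKO, a mean of 0.108 (SD 0.252), and its interval for summed UMIs, 0.0557 to 0.188 per 10000, includes the 0.183 of iCON Lypd1-high cells. Of these iCKO cells, 30 expressed Xist without Y-linked genes and 0 the reverse. Clusters were drawn from these same cells, and one found in a single library could reflect that library, so this is a description.

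The other members were not set apart in cluster 6. There Pou4f1 was at 0.992 (SD 0.582) against 1.11 (SD 0.657) in the remaining iCKO Lypd1-high cells, with an interval of the ratio of 0.725 to 1.11. Hopx was at 0.513 (SD 0.474) against 0.424 (SD 0.533) (0.887 to 1.66), and Zbtb16 at 0.175 (SD 0.229) against 0.128 (SD 0.194) (0.745 to 2.32). All these intervals include 1. Of all 48 cells of the cluster, 44 held a Pou4f1 UMI, 34 Hopx, 23 Zbtb16 and 1 Bhlhe22. Its leading genes, ranked against all other cells, included Hopx and Pou4f1 beside Espn, which encodes the actin-bundling protein espin. Pou4f1 was also among the leading genes of clusters 0 and 1, so it is not particular to cluster 6.

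**Figure D3:**
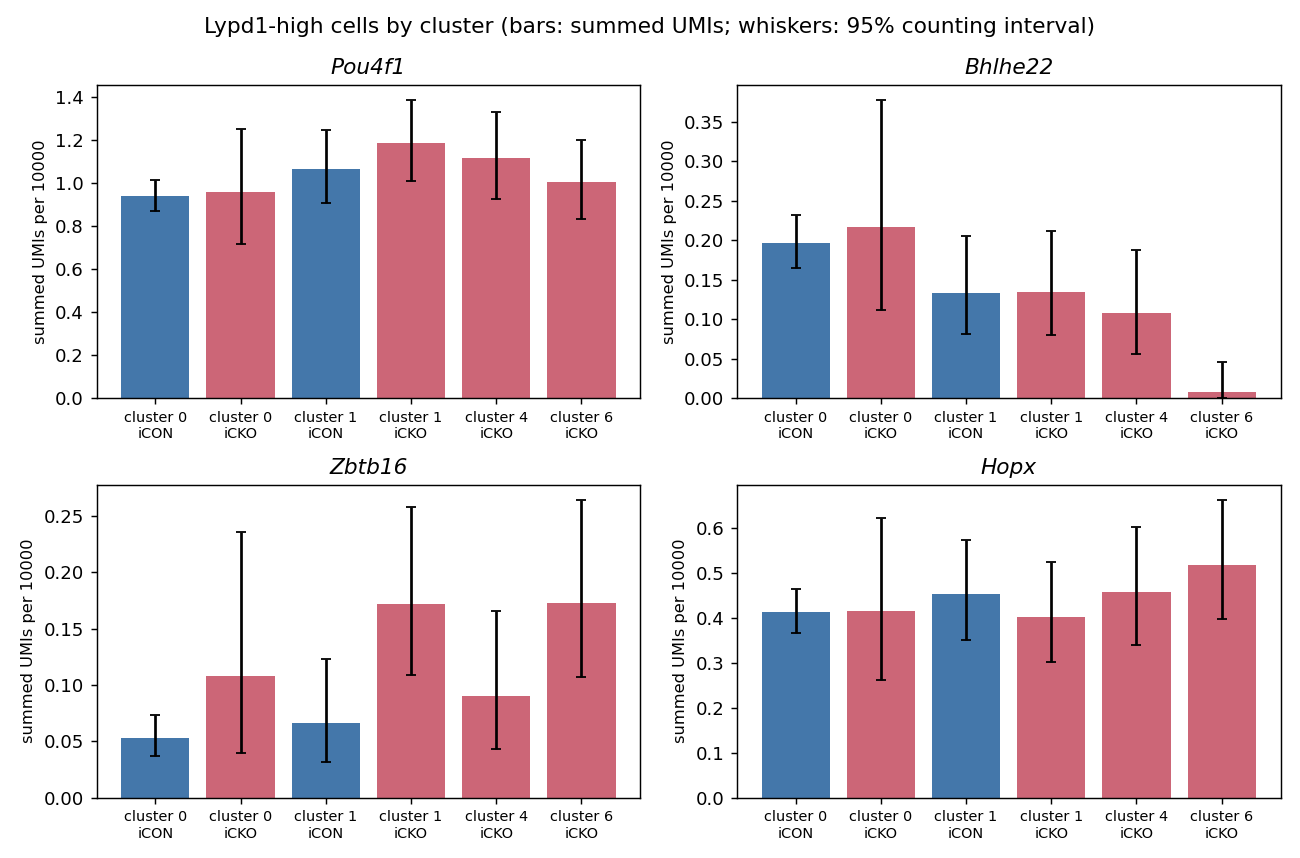
Summed UMIs of each gene per 10000 (vertical axes, linear from 0) in Lypd1-high cells of clusters 0 and 1 of both libraries (iCON blue, iCKO red) and of clusters 4 and 6 of iCKO, with 95% counting intervals as whiskers. The Bhlhe22 bar of cluster 6 rests on 1 UMI, while the Pou4f1 bars are of similar height in all of the clusters.

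Calretinin RNA divided some of the members too. In Lypd1-high cells Calb2 was at 7.39 in iCON and 47.7 in iCKO, and 18 iCON and 88 iCKO cells held at least 20 per 10000, a value chosen after seeing the data. Called doublets were kept, and 4 of these 18 iCON cells and 0 of the iCKO cells were called. In iCKO, Bhlhe22 was at 0.0660 (SD 0.165) in those cells and 0.193 (SD 0.311) in the other 38, a ratio of 0.356 (0.185 to 0.678). In iCON it was at 0.220 (SD 0.194) and 0.179 (SD 0.243), a ratio of 1.14 (0.677 to 1.83). Pou4f1 was at 0.646 (SD 0.403) with and 0.992 (SD 0.522) without that much Calb2 in iCON, a ratio of 0.655 (0.499 to 0.848), and at 1.07 (SD 0.616) and 1.10 (SD 0.688) in iCKO, a ratio of 0.970 (0.791 to 1.19). Hopx was at 0.168 (SD 0.232) and 0.441 (SD 0.489) in iCON, a ratio of 0.377 (0.213 to 0.622), and at 0.451 (SD 0.512) and 0.444 (SD 0.535) in iCKO, a ratio of 0.963 (0.701 to 1.34). Zbtb16 was at 0.0280 and 0.062 in iCON, a ratio of 0.507 (0.101 to 1.57) with 3 UMIs on the high side. In iCKO it was at 0.131 and 0.166, a ratio of 0.819 (0.468 to 1.48), and both intervals include 1. The Pou4f1 intervals of the libraries overlap and those of Hopx do not, and the difference between libraries was not tested. Without the called doublets the iCON ratios were 0.732 (0.544 to 0.968) for Pou4f1, 0.376 (0.192 to 0.665) for Hopx and 1.37 (0.787 to 2.24) for Bhlhe22. That of Zbtb16 was 0.225 (0.00557 to 1.31), with 1 UMI on the high side. Within the cells of at least 20 Calb2, the log2 ratio between libraries was 1.203 for Hopx, and 1.23 without the called doublets, both past the fold. For Zbtb16 it was 1.21, and 1.56 without the called doublets, also past the fold. For Pou4f1 it was 0.68, past the fold, but 0.56, within it, without them. Calb1, the calbindin gene used as an Ib marker, was at 0.0659 in iCON and 0.493 in iCKO Lypd1-high cells. Every Lypd1-high cell of cluster 6 was on the high side, and among the 52 other iCKO cells there Bhlhe22 was at 0.106 (SD 0.202).

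Sex and glial RNA also differed between the libraries. Cells expressing Xist without Y-linked genes made up 53.9% of iCON and 81.7% of iCKO Lypd1-high cells. Bhlhe22 was at 0.187 and 0.124 in them, with a log2 interval of -1.15 to -0.031. In the 79 iCON and 20 iCKO cells expressing Y-linked genes without Xist, it was at 0.178 from 71 UMIs and 0.0173 from 1 UMI, with an interval of -8.84 to -0.99. Of those iCKO cells, 8 were in cluster 6 and 7 in cluster 1, with 0 Bhlhe22 UMIs in either. Zbtb16 was higher in iCKO in either sex: 0.0700 and 0.135 with Xist, 0.0377 and 0.185 with Y-linked genes. Pou4f1 was at 1.02 and 1.13, then 0.880 and 0.854. Hopx was at 0.353 and 0.421, then 0.498 and 0.537.

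The 6 myelin genes summed to a median of 42.7 in iCON Lypd1-high cells (0 to 132) and 27.4 in iCKO ones (0 to 60.7), the ranges being of cells. All 6 had a lower mean in iCKO, where Mag was at 0, and 7 of 8 Schwann or satellite glia genes did. In cells under 5 myelin UMIs per 10000, 31 in iCON and 42 in iCKO, Bhlhe22 was at 0.128 and 0.133 (log2 interval -1.06 to 0.94). These are nearly the cells of cluster 1, whose 31 iCON and 41 iCKO Lypd1-high cells were all myelin-low, and so no separate support. In myelin-high cells, which hold all of cluster 6 that is Lypd1-high, it was at 0.195 and 0.0900 (-1.80 to -0.51). Whether glial RNA, sex or depth plays a part in the Bhlhe22 result was not tested. Zbtb16 was higher in iCKO on both sides, at 0.0550 and 0.131 in myelin-high and 0.0768 and 0.163 in myelin-low cells. The neuron markers summed to a median of 129.9 and 142. The 6 type II genes summed to means of 0.318 in iCON and 0.421 in iCKO, with 0 lower in iCKO and Th at 0 in both libraries. The 4 hair cell genes had a median of 0 in both and means of 0.0306 in iCON and 0.632 in iCKO, with highest cells at 0.824 in iCON and 73.9 in iCKO. Of 10 genes induced by dissociation, 8 had a lower mean in iCKO, and they summed to means of 3.62 in iCON and 3.23 in iCKO. The fibroblast or bone genes summed to 1.504 in iCON and 1.30 in iCKO, with 3 of 5 lower in iCKO, the endothelial gene was at 0.00107 in iCON and 0.00234 in iCKO, and Csf1r and Aif1 of the myeloid list were at 0 in both. The part of these RNAs in the members' values was not tested.

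**Figure D4:**
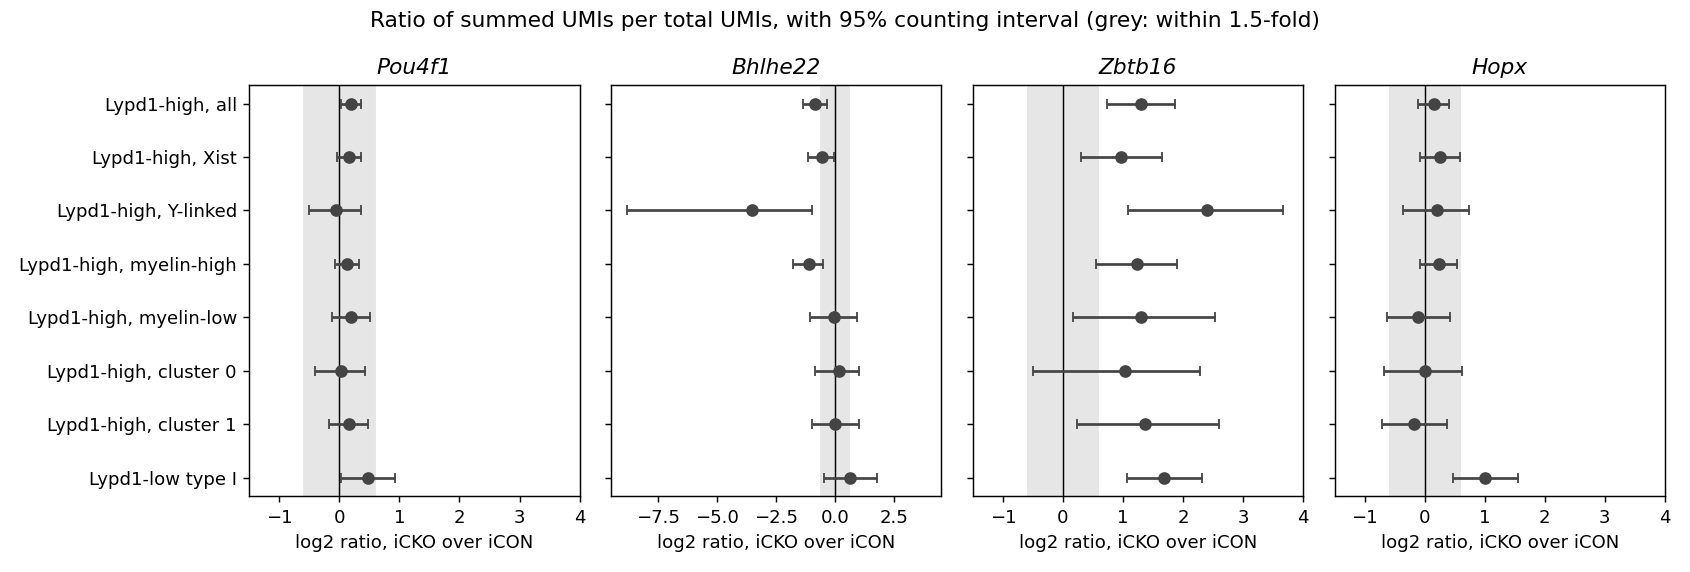
Log2 ratio of summed UMIs per total UMIs, iCKO over iCON (horizontal axes, wider for Bhlhe22), with 95% counting intervals, for subsets of Lypd1-high cells and for Lypd1-low type I cells (vertical axis). The grey band marks 1.5-fold either way: the Pou4f1 and Hopx points of the Lypd1-high subsets drawn lie inside it (the split by Calb2 is not drawn), Zbtb16 points lie to its right, and the Bhlhe22 points of clusters 0 and 1 and of myelin-low cells lie inside it while that of all Lypd1-high cells lies to its left.

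The Zbtb16 difference was not limited to Lypd1-high cells. In Lypd1-low type I cells Zbtb16 was at 0.0280 (SD 0.0802) in iCON and 0.0910 (SD 0.185) in iCKO, with a log2 interval of 1.08 to 2.32. The make-up of these cells moved too, with Calb2 at 108 and 181, Calb1 at 0.634 and 1.32, and 130 iCON but 12 iCKO cells Ib-like in the whole libraries. In Ia-like cells, 86 and 140, Zbtb16 had 6 and 50 UMIs, means of 0.0136 and 0.101. Pou4f1 in the Ia-like cells had 3 and 28 UMIs, means of 0.00533 and 0.0619, with an interval of 1.42 to 5.47. In Ib-like cells both means were lower in iCKO, from few UMIs. Zbtb16 had 30 and 1 UMIs there, means of 0.0451 and 0.0284, with an interval of -6.09 to 1.85. Pou4f1 had 108 and 2, means of 0.162 and 0.0502, with an interval of -4.65 to 0.30. Type II-like cells held 3 and 0 Zbtb16 UMIs. The Ia-like sets were unlike between libraries: Calb1 was at 0.0898 in iCON and 1.53 in iCKO and Runx1 at 0.157 and 0.948. The part of this make-up in the Zbtb16 and Pou4f1 values was not tested. After thinning, Pou4f1 was found in 2.38% (0.290 to 8.34) of iCON and 12.9% (7.80 to 19.6) of iCKO Ia-like cells, far under its share in Lypd1-high cells. Hopx in Lypd1-low cells was at 0.0458 and 0.0747 (interval 0.47 to 1.56), and Bhlhe22 at 0.0126 and 0.0198 (-0.49 to 1.75).

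By subtype, Pou4f1 in iCON was at 0.927 (SD 0.551) in 149 Ic-like, 0.162 (SD 0.239) in 130 Ib-like and 0.00533 (SD 0.0284) in Ia-like cells. Hopx was at 0.398 (SD 0.458), 0.0740 (SD 0.148) and 0.0379 (SD 0.109) in that order, and Bhlhe22 at 0.191 (SD 0.2498), 0.0313 (SD 0.106) and 0. Zbtb16 was at 0.0538 (SD 0.119), 0.0451 (SD 0.104) and 0.0136 (SD 0.0587). The counting intervals of its summed UMIs overlapped between Ic-like (0.0376 to 0.0730) and Ib-like cells (0.0315 to 0.0667), and both lay above that of Ia-like cells (0.00500 to 0.0296). In iCKO, 48 of the 66 Ic-like cells came from cluster 6, whereas all iCON Ic-like cells came from cluster 0. They held Pou4f1 at 0.938 (SD 0.609), Hopx at 0.485 (SD 0.553), Zbtb16 at 0.193 (SD 0.2505) and Bhlhe22 at 0.0639 (SD 0.188). Only 12 iCKO cells were Ib-like.

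At equal depth, 95.5% of 178 iCON and 97.6% of 125 iCKO Lypd1-high cells held at least 1 member. At least 2 were in 56.7% (49.1 to 64.1) and 68.8% (59.9 to 76.8), and all 4 in 4 iCON cells and 1 iCKO cell. In Lypd1-low type I cells at least 2 were in 2.69% (0.994 to 5.76) and 6.32% (3.66 to 10.1). Pou4f1 and Hopx were found together in 73 iCON and 59 iCKO cells, where the products of their shares give 71.8 and 61.6. Pou4f1 and Bhlhe22 were found together in 40 iCON and 20 iCKO cells, where the products of their shares give 39.6 and 18.5. Bhlhe22 and Hopx were found together in 21 iCON and 11 iCKO cells, where the products of their shares give 23.5 and 11.8. Pou4f1 was in 147 of 178 iCON and 110 of 125 iCKO cells, so pairs with it could rise little above the product. Over all 6 pairs and both libraries, the number found was 0.722 to 1.24 times the product.

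Across 424 iCON type I cells at equal depth, Lypd1 was the gene most like Pou4f1, Bhlhe22 and Hopx by Spearman correlation, among 9573 genes. The correlation of Lypd1 with Pou4f1 was 0.65 in iCON and 0.73 in iCKO (398 cells), with Bhlhe22 0.35 and 0.25, and with Hopx 0.49 and 0.48. With Zbtb16 it was 0.056 and 0.13. The members were picked with their Lypd1 pattern known, so these ranks describe and support nothing. Next to Pou4f1 came Grm8, a metabotropic glutamate receptor (0.60 and 0.59), Ccdc109b, a subunit of the mitochondrial calcium uniporter (0.59 and 0.55), Pcsk2, a prohormone convertase (0.50 and 0.56), and Serpini1, a neuronal protease inhibitor (0.49 and 0.52). Next to Hopx came Sphkap, an anchor of protein kinase A (0.43 and 0.45), Ccdc109b (0.42 and 0.46), Grm8 (0.40 and 0.49) and Calm2, a calmodulin gene (0.37 and 0.33). Next to Bhlhe22 came Pou4f1 (0.31 and 0.22), Ccdc109b (0.30 and 0.19), Grm8 (0.28 and 0.16) and Cd164l2 (0.27 and 0.11). For Zbtb16 the values were weak, led by Tamm41 (0.22 and 0.059), Sptb (0.19 and 0.026), Cdk18 (0.18 and -0.0032), Dusp1 (0.18 and 0.052) and Wdr73 (0.17 and 0.050), and in sparse counts these are no finding. Cells of a library share its preparation and are not replicates.

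Of 90 transcription regulators of neurons and the ear, relatives and partners of the members included, 80 were in the table. Of these 3 were higher, 2 lower and 75 within 1.5-fold in Lypd1-high cells, so 6.25% were past the fold. Over all listed genes 1.14% were higher and 1.47% lower, 2.61% in all. The list had a median log2 ratio of 0.0065 against -0.015 for all listed genes. With at least 0.1 per 10000 in a library, 2 of 55 were higher and 1 lower, or 5.45% past the fold. Of all genes at the members' level, 3.61% were past the fold in these cells. That level has an upper limit and the 55 regulators have none, so the shares are not fully matched. The list was chosen with earlier results of these data known, so no excess of regulators is read from these shares. Fos, an immediate early gene, was at 0.0371 in iCON and 0.123 in iCKO, and Rarb, a retinoic acid receptor, at 0.0938 in iCON and 0.218 in iCKO. Id3, an inhibitor of basic helix-loop-helix factors, was at 0.858 in iCON and 0.503 in iCKO. Past the fold at lower levels were Rxrg and Meis2. Rxrg, a retinoid X receptor that is also on the Ia marker list, was at 0.00776 in iCON and 0.0589 in iCKO, from 7 and 26 UMIs. Meis2, a homeodomain factor, had 25 UMIs in iCON and 0 in iCKO. Pou4f2, the close relative of Pou4f1, was at 0.214 in iCON and 0.196 in iCKO (log2 interval -0.56 to 0.23), and Isl1, a LIM-homeodomain factor that works with Pou4f1 in sensory ganglia, at 4.66 in iCON and 4.39 in iCKO.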

How the data were processed

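Single-cell RNA was measured with a 10x 3′ assay in sorted neurons. The deposited table gives each value as a natural log, ln(1 + CPM), a scale inferred from its values. A second deposited file gives the genotype group of each cell. The submitters' processing notes name Cell Ranger, Seurat and mm10, and cell filters are not given in the sources used here. Whole UMIs were recovered: 100% of nonzero values were multiples of the smallest step of their cell, to 1e-06. Listed genes summed to 22011292 UMIs in iCON and 13743824 in iCKO, and the libraries shared 0 barcodes.

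Intervals were exact (conditional binomial for ratios of UMIs, Clopper-Pearson for shares) or Newcombe (differences of shares), and a count of 0 is limited at 3 counts. Thinning left out 8 iCON and 2 iCKO cells. Clusters came from scanpy 1.11.5 and leidenalg 0.10.2 on 2000 variable genes, without the members, Runx1 and all marker lists. A cluster was named where the mean log2 ratio of a marker list exceeded 0.5 and that of the other lists by 0.5, with at least 3 markers detected and a marker among its leading genes. Scrublet called 5 iCON and 12 iCKO doublets, which were kept. The calculation of fold calls was checked on simulated counts, only for genes of at least 0.5 per 10000. Mean levels of Bhlhe22, Zbtb16 and Hopx in Lypd1-high cells were lower, so the check does not cover their calls. Members and lists were chosen with earlier results of these data known. Named genes were the members, Lypd1, Calb2, Calb1 and Runx1, listed regulators past the fold at 0.1 per 10000, and the 5 genes most like each member among those in at least 10% of cells. Pou4f2, Isl1, Rxrg, Meis2 and Espn were named after their values were seen.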

Additional observations from a re-analysis of the deposited data

Results flagged for a closer look

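By ratios of mean levels, cells with Xist and cells with Y-linked genes gave opposite signs for the difference between libraries in Pou4f1 and Hopx. Over all cells, the log2 ratio of Pou4f1, iCKO over iCON, was 0.069 with Xist and -0.26 with Y-linked genes. By summed UMIs these were -0.003 and -0.27, of the same sign. Among Lypd1-high cells the ratio of means was 0.14 and -0.040. The log2 ratio of Hopx over all cells was 0.21 and -0.19. For these last comparisons the signs of summed UMIs were also opposite. The counting interval of summed UMIs includes 0 in each of these 6 sets of cells, and the difference between the sexes was not tested.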

How the results depend on the processing

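Of 120 recomputed log2 ratios, 98 stayed within counting error of the reported value, 18 moved beyond it and 4, all of Bhlhe22 in Lypd1-high cells, turned a value that was past the fold. In all 12 changed sign, 4 of Bhlhe22, 4 of Pou4f1 and 4 of Hopx, and every one of them ended within the fold. Bhlhe22 in Lypd1-high cells (-0.60) was 0.035 in myelin-low cells, 0.12 in cluster 0, 0.060 in cluster 1, 0.085 under 20 Calb2, -1.22 with at least 20 Calb2, -1.76 in Y-linked cells and -1.67 without a Runx1 UMI. Zbtb16 there was past the fold in 18 of 19. Cells without a Runx1 UMI numbered 4 and 3, with Pou4f1 at 1.07, Zbtb16 at 1.96 and Hopx at 1.66. With at least 20 Calb2, Pou4f1 was 0.68 and Hopx 1.203. In Y-linked cells Pou4f1 was -0.040 and Zbtb16 1.42 in Lypd1-high cells, and over all cells Pou4f1 was -0.26, Bhlhe22 -1.23 and Hopx -0.19. Pou4f1 over all myelin-low cells was 0.35. Zbtb16 with a pseudocount of 0.5 was 0.20 in Lypd1-high and 0.18 in all cells, where 0.01 gave 1.24 and none 1.43. A large pseudocount shrinks genes this low by construction, and for the other settings the cause was not tested. Myelin-low cells and cluster 1 share nearly all their cells and count as separate settings here. Settings by cluster, by Calb2 (also without called doublets) and without a pseudocount were chosen after seeing the data.

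Of 40 detection differences, 35 stayed within counting error. Without thinning, iCON gave 46.7 points for Bhlhe22, 10.9 for Zbtb16 and 55.9 for Hopx, against 24.3, 3.94 and 40.8. Y-linked iCKO cells gave 61.1 for Pou4f1 and 0 for Bhlhe22, against 72.2 and 14.03. With pseudocounts of 0.01 and 0.5, 6 and 0 listed regulators were higher, and 3 and 0 lower. No paired analysis was possible because each group has a single library. Bhlhe22 and Zbtb16 rest on few UMIs, and a cell without a UMI may still hold the RNA.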
